A study of Mus musculus with 12 samples.

Results

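The 6 whole-heart RNA libraries of Cited4 knockout mice were compared by treatment label, 3 labelled exercise against 3 labelled sedentary, out of 12 libraries in 4 groups. They were chosen by the genotype and treatment words of their titles. KO mice were made by crossing mice with floxed Cited4 alleles (Cited4 flox/flox, called Flox) to mice carrying cre under the aMHC promoter, which is active in cardiomyocytes, and spent 8 weeks either sedentary or with voluntary wheel running. The other 6 libraries are Flox mice without the knockout under the same treatments, 3 per label. Among the KO libraries the floxed alleles and the transgene are common to both labels. No group carries cre with intact Cited4 alleles, so where KO is set against Flox, cre and loss of Cited4 cannot be told apart. The labels do not say which animal gave which library, and running distances, ages and sexes are not used here. The short codes in the titles read the other way from the words, with KE for the sedentary and KS for the exercise libraries. The words were followed, and every direction given here would turn if the letters and not the words were right.

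The product of Cited4 works with the acetyltransferases CBP and p300 to regulate transcription, and in mouse heart it is known as a gene that responds to exercise, downstream of a fall in the transcription factor C/EBP beta. Endurance exercise is known to enlarge the heart without scarring, and to act on fatty acid use, mitochondria and growth signalling. The title of the series concerns the need for Cited4 in growth of the heart with exercise. The comparison within KO hearts addresses which transcripts differ by running label when Cited4 is missing from cardiomyocytes.

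Cited4 itself was close to 0 in each KO library. The KO libraries labelled exercise held 3, 0 and 0 Cited4 counts and those labelled sedentary 5, 2 and 0. Flox libraries held 406, 261 and 431 under exercise and 276, 192 and 295 under sedentary. All 6 KO libraries thus matched their genotype word, and no fold between the labels was drawn. The 6 libraries held 18310583 to 20061269 counts each. Within a KO label, log2 CPM of libraries correlated with Pearson's r from 0.971 to 0.989 over tested genes in 6 pairs. Between the labels it ran from 0.963 to 0.988 in 9 pairs, so the labels did not set the libraries apart as a whole. The first principal component of the KO libraries took 43.6% of the variance and placed the library labelled sedentary 1 at -14.4, among the exercise libraries at -15.5, -31.0 and -7.37. The libraries labelled sedentary 2 and 3 stood apart at 25.8 and 42.4. CPM below is a count scaled to a common library size (TMM).

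Markers of atrial cardiomyocytes differed widely between the KO libraries and overlapped between the labels. Over 21 atrial markers, all tested, the mean log2 CPM was 4.48, 6.39 and 6.82 in the KO libraries labelled sedentary and 5.06, 2.29 and 4.76 in those labelled exercise. Their summed level was 2516, 13937 and 25535 CPM against 4647, 863 and 4716 CPM. The library labelled exercise 2 was thus poor in atrial transcripts, with the atrial sarcolipin Sln at 0 and the atrial myosin light chain Myl7 at 0.0516 CPM, and sedentary 2 and 3 were rich in them, while sedentary 1 lay below exercise 1 and 3. Of the 21 markers 1 was lower under exercise without overlap (4.76%), against 7.31% of all genes. Sln and Myl7 were chosen for mention after their values were seen. After ribosomal depletion the 13 protein genes of the mitochondrial genome took 24.6%, 24.1% and 23.7% of counts in the exercise libraries. In the sedentary ones they took 22.7%, 21.7% and 20.95%. Values that were not whole made up 21.7%, 22.4% and 21.7% of expressed entries in the exercise libraries and 24.5%, 26.4% and 24.8% in the sedentary ones, and the part of either difference in the results was not tested.

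Few genes differed by label in KO hearts past the test. Of 15226 genes tested, 3 passed (0.0197%), all lower under the exercise label: Clstn3, Cidec and Prkar2b, of which Cidec is a marker of fat cells. None was higher, where the smallest adjusted p was 0.124 (edgeR's quasi-likelihood test with Benjamini-Hochberg adjustment at 0.05). At an unadjusted p under 0.05 there were 1617 genes (10.6%), 663 higher (4.35%) and 954 lower (6.27%), and DESeq2 called 34 higher and 87 lower at an adjusted p under 0.05. The median log2 difference over all tested genes was -0.00. In a whole-heart library, fewer cells of a type and less RNA of that type per cell cannot be told apart.

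The promoters of 2 of the genes that passed are shown with those of 2 further fat-cell genes described below, because these genes were at low levels in each exercise library. RefSeq windows of 300 bases on GRCm38.p6 are given 5′ to 3′ on the strand of the gene: Cidec at chr6:113435711-113436010 (reverse strand), Prkar2b at chr12:32061228-32061527 (reverse), Adipoq at chr16:23146286-23146585 (forward) and Ucp1 at chr8:83290098-83290397 (forward). Each window spans the annotated start of its gene. Capitals mark CCAAT or AGGTCA on either strand; TTGCNNAA was searched too. A CCAAT lay in 38.0% of the 27025 RefSeq windows, TTGCNNAA in 10.7% and AGGTCA in 16.0%.
Cidec: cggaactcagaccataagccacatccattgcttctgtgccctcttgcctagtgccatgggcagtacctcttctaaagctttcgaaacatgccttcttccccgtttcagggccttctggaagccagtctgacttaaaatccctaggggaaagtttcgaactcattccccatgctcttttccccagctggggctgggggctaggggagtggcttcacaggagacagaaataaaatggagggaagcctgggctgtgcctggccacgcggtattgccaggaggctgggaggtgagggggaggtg
Prkar2b: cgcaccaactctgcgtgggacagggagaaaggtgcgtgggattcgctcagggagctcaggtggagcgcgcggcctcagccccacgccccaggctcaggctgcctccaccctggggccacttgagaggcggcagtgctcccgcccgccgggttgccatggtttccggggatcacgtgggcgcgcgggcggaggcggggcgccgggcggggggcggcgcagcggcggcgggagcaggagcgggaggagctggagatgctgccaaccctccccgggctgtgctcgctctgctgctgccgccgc
Adipoq: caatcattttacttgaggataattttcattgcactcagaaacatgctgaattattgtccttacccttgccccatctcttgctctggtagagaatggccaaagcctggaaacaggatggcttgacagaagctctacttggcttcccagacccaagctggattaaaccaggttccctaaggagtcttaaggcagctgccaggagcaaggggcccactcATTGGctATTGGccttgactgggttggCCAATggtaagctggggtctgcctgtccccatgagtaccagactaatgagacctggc
Ucp1: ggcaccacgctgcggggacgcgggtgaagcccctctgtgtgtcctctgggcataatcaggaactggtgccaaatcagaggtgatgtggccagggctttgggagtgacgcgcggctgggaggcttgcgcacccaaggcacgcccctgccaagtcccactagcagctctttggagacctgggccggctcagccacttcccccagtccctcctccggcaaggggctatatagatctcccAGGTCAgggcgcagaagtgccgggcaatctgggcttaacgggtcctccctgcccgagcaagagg
The Adipoq window held 3 copies of CCAAT, of which those on the reverse strand read ATTGG, and the Ucp1 window 1 copy of AGGTCA. The Cidec and Prkar2b windows held none of these letters, and the motifs were not a common feature of the windows. No window is shown for Clstn3, whose counts per symbol do not separate its several annotated starts.

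Clstn3 encodes calsyntenin 3, a cadherin-like membrane protein of synapses whose locus in the mouse also gives a shorter product in fat cells. It lies on chromosome 6 from 124430759 to 124464794 (reverse strand, GRCm38). Clstn3 stood at 0.258, 0.103 and 0.213 CPM in the KO libraries labelled exercise and at 2.46, 2.10 and 5.93 CPM in those labelled sedentary. The groups were far apart, with sedentary 3 highest. In Flox hearts the group means were 0.257 ± 0.0322 CPM (exercise) and 0.452 ± 0.0907 CPM (sedentary; SD, n = 3 each). It fell by 4.15 on the log2 scale (SE 0.50; edgeR, Benjamini-Hochberg adjusted p = 0.0195), a 17.7-fold difference at low counts.

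Cidec encodes a protein of the lipid droplet surface that lets fat cells form a single large droplet. The gene lies on chromosome 6 from 113424634 to 113435760 (reverse strand). Cidec was at 0.876, 1.29 and 0.906 CPM under the exercise label and at 8.25, 9.94 and 16.3 CPM under the sedentary label. No exercise library came near the lowest sedentary one. It fell by 3.48 on the log2 scale (SE 0.48; edgeR, Benjamini-Hochberg adjusted p = 0.0482).

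Prkar2b encodes the RII beta regulatory subunit of protein kinase A, known in mice for its abundance in fat and brain. It lies on chromosome 12 from 31958476 to 32061296 (reverse strand). Its values were 1.03, 1.497 and 1.65 CPM under the exercise label against 11.3, 8.24 and 21.7 CPM under the sedentary label. Sedentary 3 was again highest and the groups did not overlap. Prkar2b fell by 3.30 on the log2 scale (SE 0.45; edgeR, Benjamini-Hochberg adjusted p = 0.0482). Of the other 22 tested genes of beta-adrenergic and protein kinase A signalling none passed, and the list median was 0.05, near that of all genes. With Prkar2b included, 4 of the 23 were lower without overlap (17.4%), against 7.31% of all genes. None was higher without overlap, against 5.82%.

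These calls were sensitive to single libraries and to the method. Over 23 alternatives Clstn3 was called in 14, Cidec in 12 and Prkar2b in 9. RLE scaling kept Clstn3 alone, and limma voom and the fit on the KO libraries alone each kept Cidec alone of the 3. Besides Cidec, limma voom called Car3, Scd1 and Cyp2e1, all lower and described below. The fit on the KO libraries alone called Cyp2e1, Car3, Adipoq and Plin1 lower besides Cidec. Leaving out any 1 of the exercise libraries, sedentary 3 or the Flox library labelled sedentary 2 left no gene past the threshold. Leaving out sedentary 1 gave 566 genes, 334 higher and 232 lower, with these 3 among them. The count was 6 without sedentary 2 or without the Flox library labelled exercise 3, and 5 without Flox exercise 2 or Flox sedentary 1. When the atrial mean was added as a covariate no gene passed, while the log2 difference of Clstn3 stayed between -4.42 and -3.23 over all alternatives, that of Cidec between -3.73 and -3.13 and that of Prkar2b between -3.55 and -2.80.

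The difference of these genes between labels was not shown to depend on genotype. In Flox hearts the log2 difference was -0.80 ± 0.54 (SE) for Clstn3, 0.90 ± 0.69 for Cidec and 0.71 ± 0.47 for Prkar2b. The interaction, the KO difference minus the Flox difference, was -3.35 ± 0.75 for Clstn3 (edgeR, Benjamini-Hochberg adjusted p = 0.379), -4.38 ± 0.83 for Cidec (adjusted p = 0.279) and -4.00 ± 0.65 for Prkar2b (adjusted p = 0.279). Over all genes none passed for the interaction (smallest adjusted p 0.279). It had 1505 genes at an unadjusted p under 0.05 (9.88%), and DESeq2 called 50. In Flox no gene passed between the labels with edgeR (smallest adjusted p 0.0715), and 1129 had an unadjusted p under 0.05 (7.41%).

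The 5 genes with the next smallest p among lower genes did not pass, and Adipoq, Scd1 and Acaca among them act in fat cells or in making fat. Adipoq encodes adiponectin, the hormone of fat cells, and was at 0.670, 0.516 and 0.747 CPM under the exercise label against 6.13, 10.3 and 16.4 CPM under the sedentary label. No value of one group came near the other, and the log2 difference was -4.07 ± 0.58 (SE; edgeR, Benjamini-Hochberg adjusted p = 0.0585). Scd1, which desaturates stearate to oleate, was at 20.97, 14.7 and 27.2 CPM against 151, 64.1 and 173 CPM. Sedentary 2 was the lowest of its group and still above each exercise library (-2.63 ± 0.36, adjusted p = 0.0751). Acaca, the carboxylase that starts fatty acid synthesis, was at 11.7, 12.4 and 11.5 CPM against 31.7, 17.6 and 25.5 CPM. The exercise libraries lay closely together there and the sedentary ones did not (-1.07 ± 0.18, adjusted p = 0.0862). Cyp2e1, a cytochrome P450, had means of 2.34 ± 0.357 CPM under exercise and 15.2 ± 3.72 CPM under sedentary (SD, n = 3), and Apoc1, an apolipoprotein, 0.331 ± 0.0631 and 3.82 ± 2.90 CPM. Both groups were separate for these 2 genes as well.

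**Figure D1:**
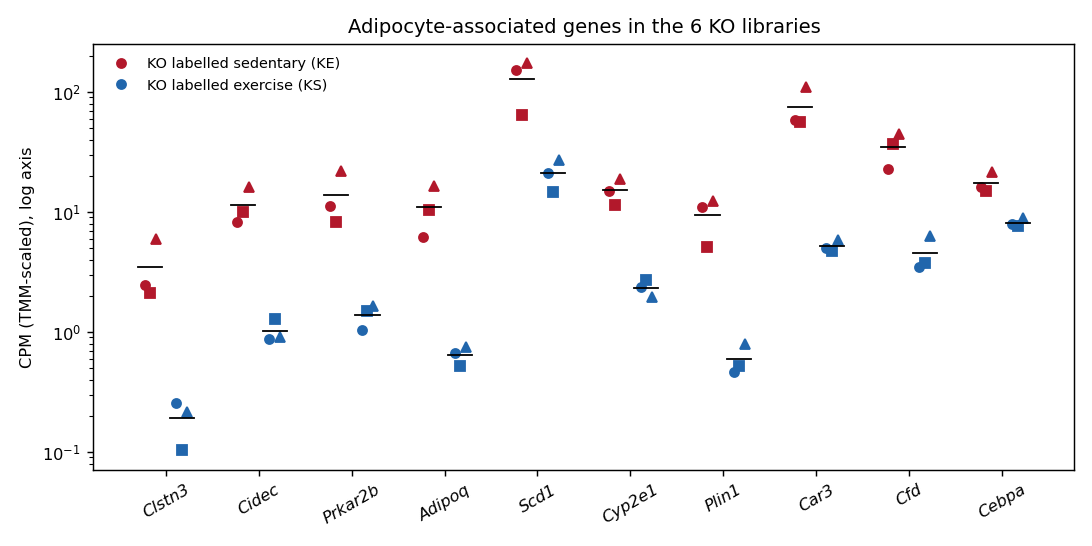
Level in CPM (log axis) of 10 adipocyte-associated genes in the 6 KO libraries; red points are libraries labelled sedentary, blue points libraries labelled exercise, circle, square and triangle are replicates 1, 2 and 3, and bars are group means. Plin1, Car3, Cfd and Cebpa were chosen after their values were seen. In every gene shown the 3 exercise libraries lie below the 3 sedentary ones, as for Cidec with 0.876 to 1.29 CPM against 8.25 to 16.3 CPM; only Clstn3, Cidec and Prkar2b passed the test.

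Across the white adipocyte markers the separation was wide but not general. Of 25 markers 23 were tested, 1 passed (Cidec), and 12 were lower and 1 higher with no overlap between the labels, against 7.31% lower and 5.82% higher over all genes. The median log2 difference was -0.59, and the mean level of the list was 4.22, 4.11 and 4.04 log2 CPM under exercise against 5.16, 5.14 and 5.55 under sedentary. Every sedentary library, the first one included, was above every exercise library. Leptin (Lep) had 1, 0 and 0 counts under exercise and 13, 0 and 1 under sedentary and was too low to test. The summed level of the 23 markers ran the other way, from 6620 to 8690 CPM under exercise and from 5712 to 6868 CPM under sedentary. Lpl, a lipase that cardiomyocytes also make, took most of that sum with 4778, 6004 and 4506 CPM against 4073, 3586 and 3173 CPM.

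Several further markers, chosen after their values were seen, show the spread within the list, and none of them passed with edgeR's main settings. Car3, a carbonic anhydrase abundant in fat and muscle, was at 5.05, 4.75 and 5.87 CPM under exercise against 58.6, 56.0 and 109 CPM under sedentary, a 14.3-fold difference with no overlap. Plin1, the perilipin that coats droplets in fat cells, was at 0.464, 0.516 and 0.800 CPM against 10.9, 5.06 and 12.4 CPM. Cebpa, the transcription factor C/EBP alpha of fat-cell differentiation, had the tightest groups of the 3, at 7.88, 7.69 and 8.90 CPM against 16.3, 14.99 and 21.4 CPM. At the other end were markers with values near 0. Pparg, the master regulator of fat-cell differentiation, differed by -0.09 ± 0.19 on the log2 scale, Lipe, hormone-sensitive lipase, by 0.02 ± 0.21, and Fabp4, a fatty acid carrier that endothelium also makes, by -0.14 ± 0.20. In these 3 genes the labels overlapped.

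No enzyme of fatty acid synthesis passed with edgeR's main settings. Of 21 lipogenic genes 5 were above 0, 8 were lower without overlap, against 7.31% of all genes, and none was higher, against 5.82%. The median log2 difference was -0.25. The list mean was 4.97, 4.85 and 4.93 log2 CPM under exercise against 5.55, 5.13 and 5.42 under sedentary. The order of the groups held in each library, with sedentary 2 nearest to the exercise libraries. Beside Scd1 and Acaca, the synthase Fasn was at 40.7, 29.5 and 33.6 CPM against 143, 46.1 and 90.02 CPM (chosen after its values were seen). The exercise and sedentary libraries did not overlap, and the log2 difference was -1.42 ± 0.31 (edgeR, Benjamini-Hochberg adjusted p = 0.199). DESeq2 gave adjusted p-values of 0.000867 for Fasn, 8.08e-13 for Scd1 and 0.000224 for Acaca.

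Ucp1, the uncoupling protein that makes heat in brown and beige fat, had counts very uneven between the labels and was chosen for mention for that reason. The exercise libraries held 0, 1 and 0 Ucp1 counts and the sedentary libraries 473, 758 and 2125. Essentially all counts were in the sedentary libraries, which differed among themselves, with the third again highest. The ratio of the group sums, scaled to library size, was 2971 (exact 95% interval 533 to 117400, counting error only). Across libraries it did not pass with edgeR (Benjamini-Hochberg adjusted p = 0.210), while DESeq2 gave an adjusted p of 0.00245. Flox libraries held 66, 3 and 0 counts under sedentary and 0 in each exercise library.

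Other genes of brown fat followed only in part. Otop1, a proton channel found in brown fat in mice, held 0 counts in the exercise libraries and 21, 14 and 73 in the sedentary ones. This was 31.9-fold higher under sedentary when 3 counts over the exercise group are taken as the floor. The exact lower 95% limit on the actual counts was 25.5-fold, for counting error only. Elovl3, an elongase of brown fat, held 0 counts against 4, 10 and 47, 18-fold higher by the same floor with a lower limit of 14.2-fold. It was too low to be tested. Both were chosen after their values were seen. Zic1 and Lhx8, transcription factor genes that mark classical brown fat, held 0 and 1 counts over all 6 KO libraries. Of the 15 tested brown and beige markers none passed, 4 were lower and 1 higher without overlap, against 7.31% and 5.82% of all genes. The list median was 0.20, and 0.04 without exercise 1. The list mean had the other sign, at 4.68, 4.50 and 4.63 log2 CPM under exercise against 5.26, 4.91 and 5.34 under sedentary. Each exercise library was below each sedentary one. Both the means and the 4 lower genes include Ucp1 and Otop1, which were tested only because of their sedentary counts. They are therefore no separate support for a difference of the list, and means without these genes were not computed. Cox8b, a cytochrome oxidase subunit that the mouse heart also makes, was at 426, 505 and 405 CPM under exercise against 257, 299 and 353 CPM under sedentary, and Ppargc1a, the co-activator PGC-1 alpha, had means of 92.9 ± 10.7 and 74.0 ± 10.2 CPM. Cox8b did not overlap between labels and Ppargc1a did. Neither passed.

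Pck1 encodes the carboxykinase that feeds glycerol synthesis in fat, and was likewise chosen after its values were seen. It was at 0.824, 0.878 and 0.373 CPM under exercise against 21.2, 13.4 and 46.0 CPM under sedentary. The groups did not overlap, and the log2 difference of -5.26 ± 0.91 did not pass (edgeR, Benjamini-Hochberg adjusted p = 0.124), while DESeq2 gave an adjusted p of 0.00336.

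Genes of energy use in cardiomyocytes leaned the other way, each by a small amount. Of 35 genes of fatty acid uptake and oxidation none passed, 31 were above 0 against 49.3% of all genes, and the median log2 difference was 0.36, or 0.24 without exercise 1. There were 15 with an unadjusted p under 0.05 and the higher value under exercise, against 4.35% of all genes. The list mean was 8.06, 7.97 and 7.53 log2 CPM under exercise and 7.87, 7.40 and 7.35 under sedentary. Sedentary 1 lay above exercise 3, so the labels overlapped, and 3 of the 35 genes were higher without overlap, a share not far from the 5.82% of all genes. One of these was Lpl, which frees fatty acids from circulating lipoproteins (0.50 ± 0.14; edgeR, Benjamini-Hochberg adjusted p = 0.305). Acadm, the medium-chain acyl-CoA dehydrogenase, was at 948, 1078 and 802 CPM under exercise against 803, 597 and 546 CPM under sedentary. It overlapped only through exercise 3 and sedentary 1, which had nearly equal levels.

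Respiratory chain genes had a similar median with a different order of libraries. All 37 tested nuclear genes of complex I were above 0 (median 0.25) and 38 of 42 of complexes II to V (median 0.26), and none passed. Of all genes 49.3% were above 0. Higher without overlap were 8 of the 37 and 11 of the 42, against 5.82% of all genes. None was lower without overlap, against 7.31%. Without exercise 2 these medians were 0.14 and 0.16. The mean of complexes II to V was 9.07, 9.19 and 8.85 log2 CPM under exercise and 8.67, 8.77 and 8.93 under sedentary, where sedentary 3 lay above exercise 3. Atp5k, a subunit of ATP synthase, was at 254, 241 and 202 CPM against 95.2, 123 and 150 CPM with no overlap (0.92 ± 0.23; edgeR, Benjamini-Hochberg adjusted p = 0.234). Sdha, the catalytic subunit of complex II, was at 1388, 1435 and 1161 CPM against 1158, 850 and 802 CPM. Exercise 3 and sedentary 1 were level there, as for Acadm. Ndufv1, a complex I subunit that takes electrons from NADH, differed by 0.34 ± 0.12, and Ndufs1, another, by 0.35 ± 0.14.

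The 13 protein genes of the mitochondrial genome had a median of 0.28, with 12 above 0, 8 higher without overlap against 5.82% of all genes, and none past the threshold. Without sedentary 1 the median was 0.44. mt-Nd3, a complex I subunit, was at 3631, 3866 and 3377 CPM under exercise against 2017, 2036 and 2689 CPM under sedentary. All exercise values were above all sedentary ones. mt-Atp8 was at 435, 197 and 363 CPM against 170, 156 and 165 CPM, and because it overlaps mt-Atp6 the split of reads between them is uncertain. Of 20 regulators of mitochondrial biogenesis 17 were above 0 (median 0.17, and 0.37 without sedentary 1), among them the mitochondrial helicase Twnk (0.47 ± 0.14) and the transcription factor Tfb2m (0.28 ± 0.10), and none passed.

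Glucose uptake and glycolysis genes had a median of 0.26 over 28 tested genes, with 24 above 0 and none past the threshold. Without overlap 6 were higher and 1 lower, against 5.82% and 7.31% of all genes. Ldhb, the lactate dehydrogenase of heart muscle, was at 1189, 1435 and 1275 CPM under exercise and 1092, 889 and 890 CPM under sedentary. The groups did not overlap. Pdha1, a subunit of pyruvate dehydrogenase, differed by 0.35 ± 0.13. The gene furthest in the other direction, Pfkfb3, which makes the activator of phosphofructokinase, was at 9.33, 11.0 and 7.79 CPM against 14.2, 21.2 and 24.7 CPM and was chosen after its values were seen. Its difference in Flox was as large (-1.10 ± 0.21) as in KO (-1.09 ± 0.21), and neither passed.

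**Figure D2:**
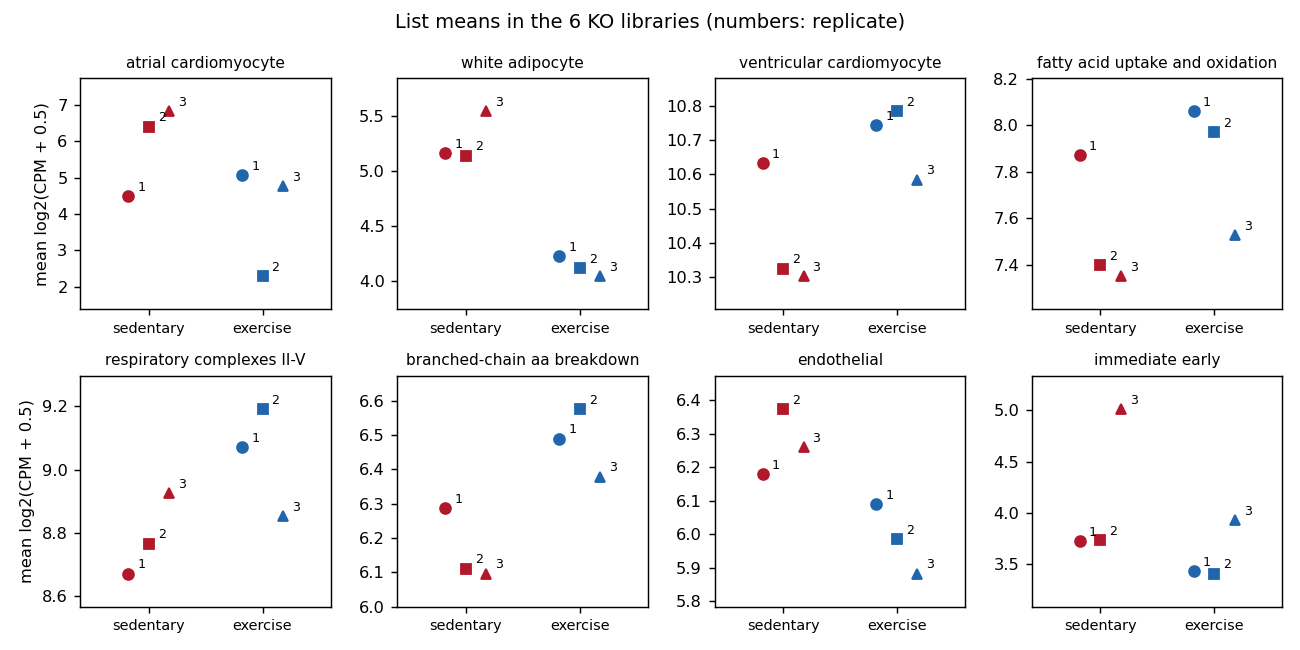
Mean log2(CPM + 0.5) of 8 gene lists in each KO library, by label and replicate number, each panel on its own vertical scale that does not start at 0. White adipocyte genes separate the labels with 4.04 to 4.22 against 5.14 to 5.55, whereas the fatty acid oxidation and ventricular lists place sedentary 1 among the exercise libraries, and the atrial list runs from 2.29 in exercise 2 to 6.82 in sedentary 3.

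Genes for the breakdown of the branched-chain amino acids leucine, isoleucine and valine had a log2 difference above 0 in all but 1 of the tested members, none of which passed. This list was drawn up after the values were seen, and its count is a description. Of 23 tested genes 22 were above 0, against 49.3% of all genes, and the median log2 difference was 0.29. There were 12 higher without overlap, against 5.82%, and 14 with an unadjusted p under 0.05 and the higher value under exercise, against 4.35%. The list mean was 6.49, 6.58 and 6.38 log2 CPM under exercise against 6.29, 6.11 and 6.10 under sedentary. All 3 exercise libraries were above all 3 sedentary ones.

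The pathway begins with the mitochondrial aminotransferase Bcat2, which was at 123, 133 and 106 CPM under exercise against 94.1, 73.1 and 66.7 CPM under sedentary. No library of one label reached the other (0.63 ± 0.14; edgeR, Benjamini-Hochberg adjusted p = 0.159). Of the dehydrogenase complex that follows, Bckdhb was at 48.8, 48.8 and 46.1 CPM against 37.2, 31.6 and 35.2 CPM, and Dbt at 64.6, 62.0 and 71.7 CPM against 61.6, 36.4 and 33.9 CPM. Bckdhb was evenly separated, while in Dbt sedentary 1 almost reached the exercise libraries. The phosphatase that activates the complex, Ppm1k, differed by 0.56 ± 0.19 and the kinase that inhibits it, Bckdk, by 0.15 ± 0.09. Among enzymes of the leucine branch, Ivd was at 380, 401 and 356 CPM against 296, 242 and 225 CPM, and Mccc1 at 123, 134 and 116 CPM against 98.1, 83.6 and 85.0 CPM. Both were free of overlap. The cytosolic aminotransferase Bcat1 was the only member below 0, at -0.29 ± 0.40. In Flox hearts the list median was -0.08, and no interaction passed.

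**Figure D3:**
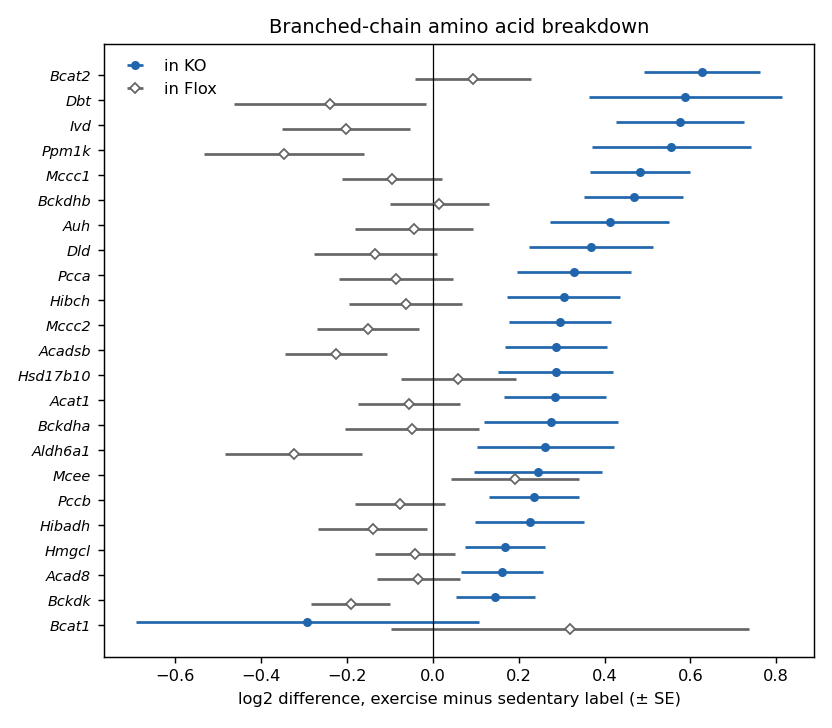
Log2 difference, exercise minus sedentary label, of 23 genes of branched-chain amino acid breakdown with its standard error, in KO (filled blue circles) and in Flox hearts (open grey diamonds), 3 libraries per group. In KO 22 genes lie above 0, with Bcat2 highest at 0.63, while the Flox values scatter around a median of -0.08; no gene passed in either genotype.

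Genes of ventricular cardiomyocytes and of calcium handling also had medians above 0. Of 25 ventricular markers 22 were above 0 (median 0.23, and 0.39 without sedentary 1) and none passed. Those higher without overlap were 2 of 25, near the 5.82% of all genes. Pln, the inhibitor of the calcium pump SERCA, was at 4487, 4953 and 4344 CPM under exercise against 4191, 2949 and 2771 CPM under sedentary, and Hrc, a calcium-binding protein of the sarcoplasmic reticulum, at 901, 963 and 721 CPM against 751, 574 and 532 CPM. In both genes sedentary 1 was close to or within the exercise libraries and sedentary 2 and 3 were well below. Of 29 genes for calcium cycling and ion channels 22 were above 0 (median 0.18, from 0.09 without sedentary 3 to 0.35 without sedentary 1), with the channel subunit Cacna2d1 at 0.54 ± 0.17, and none passed. The 21 atrial markers had a median of -1.37, with 20 below 0, as described above, and of these Nr2f1 was at 3.40, 2.43 and 3.41 CPM against 5.26, 8.37 and 8.08 CPM.

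With the atrial marker mean in the model, the median log2 difference was 0.11 for the ventricular list, 0.21 for fatty acid oxidation, 0.12 for complex I, 0.14 for complexes II to V, 0.16 for glycolysis and 0.23 for branched-chain amino acid breakdown. That of the white adipocyte list was -0.60, nearly as without the covariate. Some other lists moved away from 0. The endothelial median was -0.34, against -0.27 without the covariate, and the smooth muscle median -0.39, against -0.23. The hypertrophy median was 0.15, against 0.01, and the mesothelial median 2.50, against 0.08. The fibroblast median moved toward 0, to -0.05 against -0.24, and the macrophage median changed sign, to 0.27 against -0.09. Medians of the immediate early (-0.38 against -0.65), interferon (-0.17 against -0.27) and integrated stress lists (-0.09 against -0.25) also moved toward 0. The atrial median was 0.05, which follows from the model because the covariate is the mean of these same markers.

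Growth and hypertrophy genes had medians near 0 over all 6 libraries. Over 30 genes of IGF1, PI3K, AKT, C/EBP and CITED signalling the median was 0.00, with 15 above and 15 below 0 and none past the threshold. Irs1, an adaptor of the insulin receptor, differed by 0.59 ± 0.29 and the receptor Insr by 0.25 ± 0.15. Cebpb, the C/EBP factor known to act upstream of Cited4, was at 31.5, 29.6 and 26.1 CPM under exercise against 16.1, 36.3 and 30.9 CPM under sedentary and is named for that role after its values were seen. The labels overlapped and the log2 difference was 0.07 ± 0.31. Of 15 tested hypertrophy and stretch genes none passed (median 0.01, from -0.26 without exercise 3 to 0.25 without sedentary 1), with the fetal myosin Myh7 at 357, 218 and 747 CPM against 422, 197 and 167 CPM and Xirp2, an actin-binding repeat protein, at 0.37 ± 0.19. Myh7 varied more within the exercise label than between labels. Of 32 cell cycle genes none passed (median 0.03, from -0.17 without exercise 3 to 0.17 without exercise 2), and Ccnb1, a cyclin of mitosis, was at 0.618, 0.207 and 1.71 CPM against 0.482, 0.492 and 0.365 CPM, a difference that rested on exercise 3. Cdk6, a kinase of entry into the cycle, differed by 0.24 ± 0.19.

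No marker of endothelium, smooth muscle or fibroblasts passed. Of 22 endothelial markers 20 were below 0 (median -0.27), against 50.7% of all genes, and 6 were lower without overlap, against 7.31%. Eng, a co-receptor for TGF beta, was at 183, 140 and 175 CPM under exercise against 197, 291 and 372 CPM under sedentary, with sedentary 1 nearest to the exercise libraries. Ecscr, an endothelial surface protein, differed by -0.57 ± 0.18. Of 23 tested angiogenic ligands and receptors 15 were below 0 (median -0.10, and 0.03 without sedentary 1). Angpt2, the ligand that opposes angiopoietin 1, was at 3.81, 4.34 and 3.57 CPM against 5.45, 6.09 and 7.76 CPM, while in Flox its difference was 0.77 ± 0.18. The KO groups did not overlap, and the interaction of -1.48 ± 0.26 did not pass (edgeR, Benjamini-Hochberg adjusted p = 0.279).

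Smooth muscle and pericyte markers had a median of -0.23 over 16 genes. Myl9, a smooth muscle myosin light chain, was at 36.8, 37.3 and 41.5 CPM under exercise against 81.7, 94.6 and 158 CPM under sedentary, and Cnn1, a calponin, at 2.63, 4.80 and 5.23 CPM against 20.5, 6.49 and 9.45 CPM. Both were separate by label, with different sedentary libraries at the top. Without sedentary 1 the list median was 0.03. Of 20 fibroblast markers 16 were below 0 (median -0.24, from -0.07 without exercise 2 to -0.40 without exercise 3, and -0.01 without sedentary 3 and exercise 2 together), and Tcf21, which specifies fibroblasts of the heart, was at 6.70, 5.73 and 8.75 CPM against 10.4, 14.4 and 20.8 CPM with no overlap. Gsn, gelsolin, differed by -0.48 ± 0.18. The 36 collagen and matrix genes had a median of -0.05, from -0.27 without exercise 3 to 0.07 without exercise 2, with the proteoglycan Bgn at -0.65 ± 0.19 and the basement membrane protein Nid2 at -0.39 ± 0.12.

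Lists of other cell types held no gene past the threshold. The 20 macrophage and monocyte markers had a median of -0.09, from -0.28 without exercise 3 to 0.14 without exercise 2, with no gene free of overlap, the growth factor receptor Csf1r at -0.39 ± 0.25 and Cd74 at -0.41 ± 0.29. Of 16 lymphocyte markers 7 were tested (median -0.42, and -0.24 without exercise 3), with Ighm at -0.42 ± 0.18 and Ms4a1 at -0.86 ± 0.63. The 9 tested blood genes had a median of -0.36, or -0.17 without sedentary 1, and the haemoglobin gene Hba-a1, which has a near-identical copy and is therefore uncertain, was at 127, 147 and 120 CPM against 211, 204 and 193 CPM, with Hbb-bt at -0.40 ± 0.15. Hba-a1 was lower in each exercise library. The blood list was mixed, with 4 of its 9 genes above 0. Of the 9, 4 were lower without overlap, against 7.31% of all genes, and 2 were higher, against 5.82%. Schwann cell and neuron markers had a median of -0.07 over 14 tested genes, or -0.25 without exercise 3, with S100b at -0.57 ± 0.31, and Dbh, the enzyme that makes noradrenaline, at -1.07 ± 0.51. Dbh is also among the atrial markers described above. The 7 tested skeletal muscle markers had a median of -0.72 from genes at low levels, such as the fast troponins Tnnt3 (-1.48 ± 0.69) and Tnni2 (-0.99 ± 0.49). The 10 mesothelial markers had a median of 0.08, which ran from -2.48 without exercise 3 to 0.99 without sedentary 3, and their keratins came mainly from single libraries. Krt8 was at 0.309, 0 and 6.19 CPM against 0.627, 0.358 and 2.33 CPM, and Krt19 at 0.309, 0 and 8.80 CPM against 0.627, 0.806 and 3.01 CPM, with exercise 3 and sedentary 3 high in both.

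Stress and signal-dependent genes were mixed, and none of their members passed. Of 24 tested immediate early genes 22 were below 0 (median -0.65), against 50.7% of all genes, and 3 were lower without overlap, against 7.31%. Their list mean was 3.43, 3.41 and 3.93 log2 CPM under exercise against 3.73, 3.73 and 5.01 under sedentary. Sedentary 3 was the highest by far, and the median was -0.16 without it. Jun, a subunit of AP-1, was at 41.6, 54.5 and 51.3 CPM against 65.6, 56.7 and 85.5 CPM, and Dusp1, a MAP kinase phosphatase, at 46.4, 44.8 and 42.4 CPM against 54.4, 52.1 and 95.2 CPM. Neither overlapped. Of 35 interferon response genes 31 were below 0 (median -0.27, and -0.17 without sedentary 2), with Ifi27 at -0.72 ± 0.19 and the RNA sensor Ddx58 at -0.44 ± 0.12. The 17 tested genes of the integrated stress response had a median of -0.25, or -0.12 without sedentary 3, with Nupr1 at -0.86 ± 0.33 and the cytokine Gdf15 at -0.96 ± 0.39.

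Of 20 clock genes 12 were below 0 (median -0.23, from -0.45 without exercise 2 to -0.03 without exercise 3). Bhlhe40, a repressor in the clock loop, was at 42.5, 50.1 and 37.3 CPM under exercise against 62.4, 64.8 and 75.7 CPM under sedentary, free of overlap (-0.64 ± 0.12; edgeR, Benjamini-Hochberg adjusted p = 0.109). Its Flox difference of -0.91 ± 0.13 had the same sign. Ciart, another repressor of the clock, was at 4.17, 11.0 and 2.35 CPM against 5.55, 18.04 and 16.4 CPM, with exercise 2 above sedentary 1. Glucocorticoid-responsive genes had a median of 0.19 over 17 genes, which turned to -0.09 without exercise 1, with Lcn2 at 3.71, 2.07 and 15.6 CPM against 1.93, 1.88 and 1.32 CPM and Ddit4 at 0.61 ± 0.34. Lcn2 was high in exercise 3 alone. The 20 heat shock genes had a median of 0.03, or 0.16 without sedentary 1, with the co-chaperones Bag3 at 0.32 ± 0.12 and Dnajb4 at 0.25 ± 0.10. The 18 endoplasmic reticulum stress genes had a median of 0.21, or 0.14 without exercise 3, with the sensor Atf6 at 0.48 ± 0.18 and the chaperone Canx at 0.26 ± 0.13.

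Phlda3, a p53 target that restrains AKT, was at 15.3, 14.2 and 14.98 CPM under exercise against 23.3, 19.5 and 26.8 CPM under sedentary. The labels did not overlap, and it did not pass (-0.65 ± 0.12; edgeR, Benjamini-Hochberg adjusted p = 0.109). The 17 tested p53 targets had a median of -0.01, with the kinase Plk2 at -0.51 ± 0.16. The 46 cytosolic ribosomal protein genes had a median of -0.11, which turned to 0.09 without sedentary 3 and was -0.26 without sedentary 1, of which Rpl3 was at -0.49 ± 0.20 and Rps7 at -0.24 ± 0.16.

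**Figure D4:**
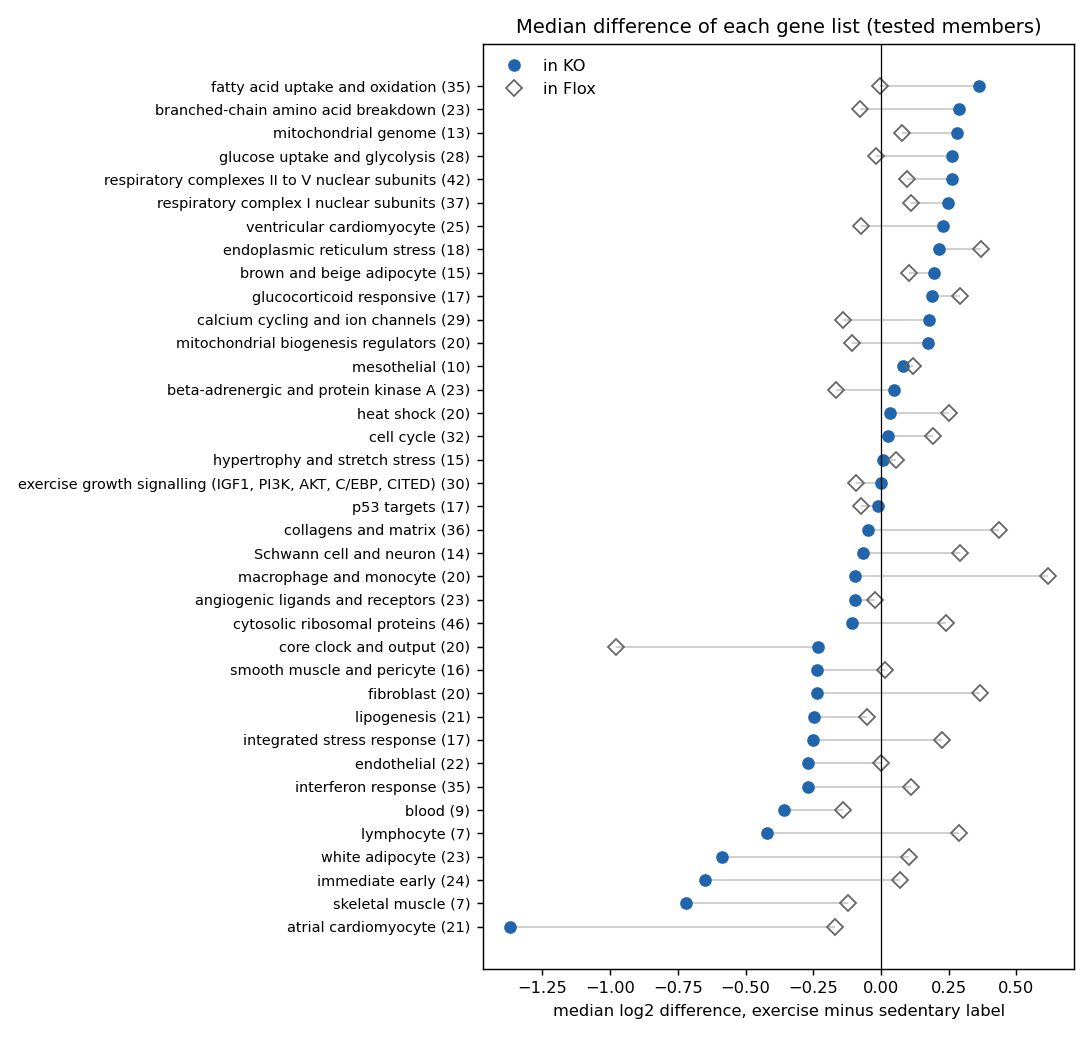
Median log2 difference, exercise minus sedentary label, over the tested members of 37 gene lists (number of members in brackets), in KO (filled circles) and in Flox hearts (open diamonds). In KO the medians run from -1.37 for atrial markers to 0.36 for fatty acid uptake and oxidation; each point is a median over genes of 3 against 3 libraries with no error bar and no test.

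Among genes with the smallest p above 0, none passed and most differed by less than 1 on the log2 scale. Lsmem1, a small membrane protein gene, was at 22.7, 26.6 and 28.5 CPM under exercise against 19.2, 14.7 and 14.8 CPM under sedentary (0.68 ± 0.14; edgeR, Benjamini-Hochberg adjusted p = 0.124). Efnb3, an ephrin ligand, was at 95.5, 84.1 and 67.4 CPM against 53.7, 40.1 and 28.0 CPM, and P2ry1, a receptor for ADP, at 28.1, 25.9 and 28.4 CPM against 21.03, 14.5 and 13.9 CPM. In all 3 genes sedentary 1 was the highest of its group and below each exercise library. Phyhd1, a dioxygenase gene, was at 0.83 ± 0.18, Mb21d2 at 0.52 ± 0.12 and the zinc finger gene Zfp971 at 0.60 ± 0.14. Zfp971 in Flox had the opposite sign (-0.51 ± 0.14), with an interaction of 1.11 ± 0.20 that did not pass (adjusted p = 0.279). Rpl37rt, a copy of a ribosomal protein gene whose reads cannot be cleanly assigned, was at 12.98, 8.93 and 11.9 CPM against 2.07, 4.52 and 5.34 CPM. It too was free of overlap.

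Without sedentary 1 more of these small differences passed, in a fit that called 2.14% of all genes higher and 1.49% lower. Higher were 8 genes of fatty acid oxidation, 6 ventricular genes, 6 of calcium cycling, 6 of glycolysis and 6 of branched-chain amino acid breakdown, where the ventricular and calcium lists had 3 called genes in common. Called the other way were 1 gene of glycolysis and 1 of calcium cycling. Of the white adipocyte genes 8 were lower and 1, Lpl, was higher. Among the calls were Bcat2 at 0.80 ± 0.12 and Eng at -0.98 ± 0.15. In that fit the sedentary group consists of the 2 libraries richest in atrial markers, at 6.39 and 6.82 log2 CPM against 2.29 to 5.06 under exercise. DESeq2 on all libraries called 0.223% of genes higher and 0.571% lower. It called 8 white adipocyte genes lower and Lpl higher, with 4 lipogenic genes lower and 4 branched-chain amino acid genes higher.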

How the data were processed

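RNA of whole hearts was extracted with Trizol, depleted of ribosomal RNA with RiboZero and made into libraries with NEB reagents, according to the labels' protocols. The authors deposited 1 table of estimated counts, unscaled, with a row for each symbol. The submitters' processing notes list FastQC and the transcript quantifier Salmon without versions, and 2 builds, mm9 and mm10, without saying what each was used for. Strand setting, annotation and the summing of transcripts are not stated there. Salmon divides reads among near-identical sequences, so such copies, overlapping genes and antisense pairs have uncertain values.

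Of 55874 entries, 1696 naming vectors, phages, adaptors or linkers were left out (0.00371% to 0.186% of a KO library's counts), and 54178 were kept. Estimated counts were rounded to whole numbers. Counts of replicates differed beyond sampling noise (chi-square over its degrees of freedom 17.1 to 84.7), so each library was counted as its own replicate. Because animals are not named, the p-values speak only of how these samples vary, which may be technical.

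Genes were tested with edgeR 4.0.16 under R 4.3.3 (genes kept by filterByExpr, TMM, a cell-means model over all 12 libraries, robust glmQLFit, glmQLFTest) with Benjamini-Hochberg adjustment at 0.05 over 15226 genes; the code was tested on simulated data. Standard errors come from the log2 difference and its F statistic. CPM values use TMM-scaled library sizes, with 0.5 added before taking log2 for list means. Errors after ± are SD with CPM and SE with log2 differences. Lists are described by counts and medians, with no test. Alternatives were DESeq2 1.42.0, limma 3.58.1 (voom), other scalings and filters, KO libraries alone, a replicate block, an atrial covariate and leaving out each library.

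The comparison, its members and the gene lists were chosen with earlier results of these data known. Named genes were Cited4, genes past the threshold without overlap at a mean of at least 1 CPM in KO, filled up to 8 per direction by smallest p with predicted genes left out, and, per list, members that passed or the 2 with the smallest p and the sign of the list median. Other genes are said to be chosen after their values were seen. Coordinates are from GENCODE M21 (GRCm38), matched by symbol, and all 4 promoter windows from RefSeq (GRCm38.p6). Intervals and floors on counts cover counting error only.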

Additional observations from a re-analysis of the deposited data

Results flagged for a closer look

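Entries that name vectors, phages, adaptors or linkers, which no comparison uses, took up to 0.186% of counts in a KO library labelled exercise. The share was 0.0981%, 0.00393% and 0.186% in the exercise libraries and 0.0899%, 0.00416% and 0.00371% in the sedentary ones. It was raised in exercise 1 and 3 and in sedentary 1, and its part in the results was not tested.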

How the results depend on the processing

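The number of genes past the threshold in KO, 3 with edgeR's main settings, was 1 with RLE size factors, 30 with no filter on low counts, 5 without robust estimation, 5 with the KO libraries alone, 1 of them among the 3, 0 with the atrial covariate and 121 with DESeq2. Leaving out 1 library gave 0 to 566. Leaving out sedentary 3 and exercise 2 together, an alternative chosen after seeing the data, gave 0. For the interaction the number, 0 with the main settings, was 1 with no filter, 50 with DESeq2 and 0 to 2 on leaving out a library. The cause was not tested. The direction of named genes held except for Krt8 (-1.18) and Krt19 (-1.52) with limma voom, and on leaving out libraries, where the log2 difference ran from -0.066 to 0.42 for Cdk6, -0.10 to 1.36 for Ccnb1, -2.77 to 2.72 for Krt8 and -3.20 to 2.66 for Krt19, each lowest without exercise 3. For Cited4, near 0 counts in KO, it ran from -4.15 to 0.20, highest without sedentary 1. List medians moved by less than the SD of the list mean between libraries of a label in 828 of their alternatives and by more in 23. This SD is wide for some lists, such as 1.63 under exercise and 0.959 under sedentary for the mesothelial list. The mesothelial median turned from 0.08 to -0.14 without sedentary 1 within that SD, so the 828 do not show that medians were stable. The sign of the white adipocyte, lipogenesis, fatty acid oxidation, respiratory and branched-chain amino acid medians held in all 23 alternatives each. It held as often for other lists, such as the endothelial, interferon, immediate early and skeletal muscle lists, so it does not set these apart. All alternatives reuse the same libraries, and the branched-chain list was drawn up after its values were seen, so its constant sign is a description.

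With replicate number as a block 4 genes passed, 1 of them among the 3, the others being Mfap4, Adipoq and Scd1. Deviations of same-numbered KO libraries correlated at 0.02, -0.01 and 0.14, so the numbers were not taken to pair the samples. With 3 libraries per label, genes at low counts such as Clstn3 carry wide errors.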
